A study of Mus musculus with 8 samples.

Results

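The genes described here were 10 matrix metalloproteinases and tissue inhibitors of metalloproteinases, chosen by name: *Mmp2*, *Mmp9*, *Mmp11*, *Mmp13*, *Mmp14*, *Mmp15*, *Mmp16*, *Timp1*, *Timp2* and *Timp3*. They were read in hindlimb cells of E12.5 mouse embryos sorted by FACS for EGFP driven from the *Bapx1* locus. A total of 9 of the 10 genes had a probe, of the 19057 genes with a probe on the Illumina BeadChip, and 8 had a probe that could be tested, of 10772 such genes. No probe carried the symbol *Mmp15* in the annotation used, and that gene was not analysed here. Of the genotypes compared, 4 arrays came from *Bapx1* null embryos, homozygous for an allele (tm4.Tlu) in which EGFP follows the start codon and *Bapx1* is lost. The other 4 came from *Bapx1* wildtype embryos, which the paper writes as heterozygous for an allele (tm2.Tlu) that keeps *Bapx1* and carries EGFP behind an internal ribosomal entry site in its untranslated region. Both lines were on a C57BL/6J;129 background, and the sort was designed to take only cells in which the *Bapx1* regulatory elements were active. Erythroid and platelet genes were also detected, as given below, and the purity of the sort was not tested. The cells were dissociated with enzymes before sorting. The methods call the arrays biological replicates, but the sources used here do not give the number of embryos behind each.

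Matrix metalloproteinases are zinc endopeptidases that cut collagens, proteoglycans and other proteins of the extracellular matrix. Most are secreted as inactive precursors, while *Mmp14*, *Mmp15* and *Mmp16* encode enzymes that stay anchored in the cell membrane, and the active enzymes are held in check by the secreted TIMP proteins. In the growing skeleton *Mmp9* and *Mmp13* are known for the removal of cartilage matrix ahead of bone, and *Mmp14* for activating the MMP2 precursor together with TIMP2. *Bapx1* (*Nkx3-2*) is a homeobox gene of cartilage-forming mesenchyme.

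The arrays each detected between 18375 and 20256 probes, and correlations between arrays lay between 0.954 and 0.987 over probes, which are no independent replicates. The targeted gene does not check the labels. Its probes were detected on all 4 null arrays and on 0 of 4 wildtype arrays. The measured differences, which take in the undetected wildtype values, had a limma adjusted p of 9.52e-05 for each probe. As untested bounds, null cells were at least 10.4-fold higher by the brighter probe and at least 8.07-fold by the other. Each bound sets the null mean against a wildtype mean in which the dimmest detected signal of each array stood in for the undetected probe. The place of these probes relative to the altered part of the alleles was not tested, so the groups are named as the labels name them and each direction below rests on those labels. A normalized level here is the log2 intensity after background correction, an offset and quantile normalization. A probe counted as detected on an array at a detection p under 0.05, was tested if detected on at least 4 of the 8 arrays, and was called at a Benjamini-Hochberg adjusted p under 0.05 over all 19568 probes tested.

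*Mmp9*, which encodes the secreted gelatinase B, was lower in null than in wildtype hindlimb cells, and no other tested gene of the set was called. Of the 11 tested probes of the set, 1 was called lower, 0 were called higher and 10 were not called. Over all probes tested, 0.761% were called in either direction and 0.439% were called lower. The groups did not overlap for 1 of the 11 probes, again that of *Mmp9*, against 6.29% of all probes tested. By the brightest probe of each gene the median log2 fold, null minus wildtype, was −0.08 over the 8 genes and −0.07 without *Mmp9*, beside −0.04 over all tested genes.

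The deposited *Mmp9* intensity was 43.2, 40.5, 59.0 and 52.1 on the null arrays, against 228.7, 135.4, 159.3 and 146.2 on the wildtype arrays (replicates 1 to 4). After normalization the log2 levels were 5.84, 6.18, 6.20 and 6.18 in null cells and 7.43, 7.29, 7.22 and 7.70 in wildtype cells. The highest null array thus lay a full log2 unit below the lowest wildtype array, and the probe was detected on all 8 arrays. The means were 6.10 ± 0.17 in null and 7.41 ± 0.21 in wildtype cells (SD, n = 4 each). This was a log2 fold of −1.31 ± 0.14 (SE, limma, two-sided, adjusted p = 0.00412), or 2.48-fold lower with a 95% interval of 1.98-fold to 3.11-fold. That interval holds for the offset used here and does not cover the choice of processing, given below. The change was larger than that of 99.3% of the tested probes, and 29th by p. *Mmp9* has 1 probe on the array, so its change has no check from another probe.

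**Figure D1:**
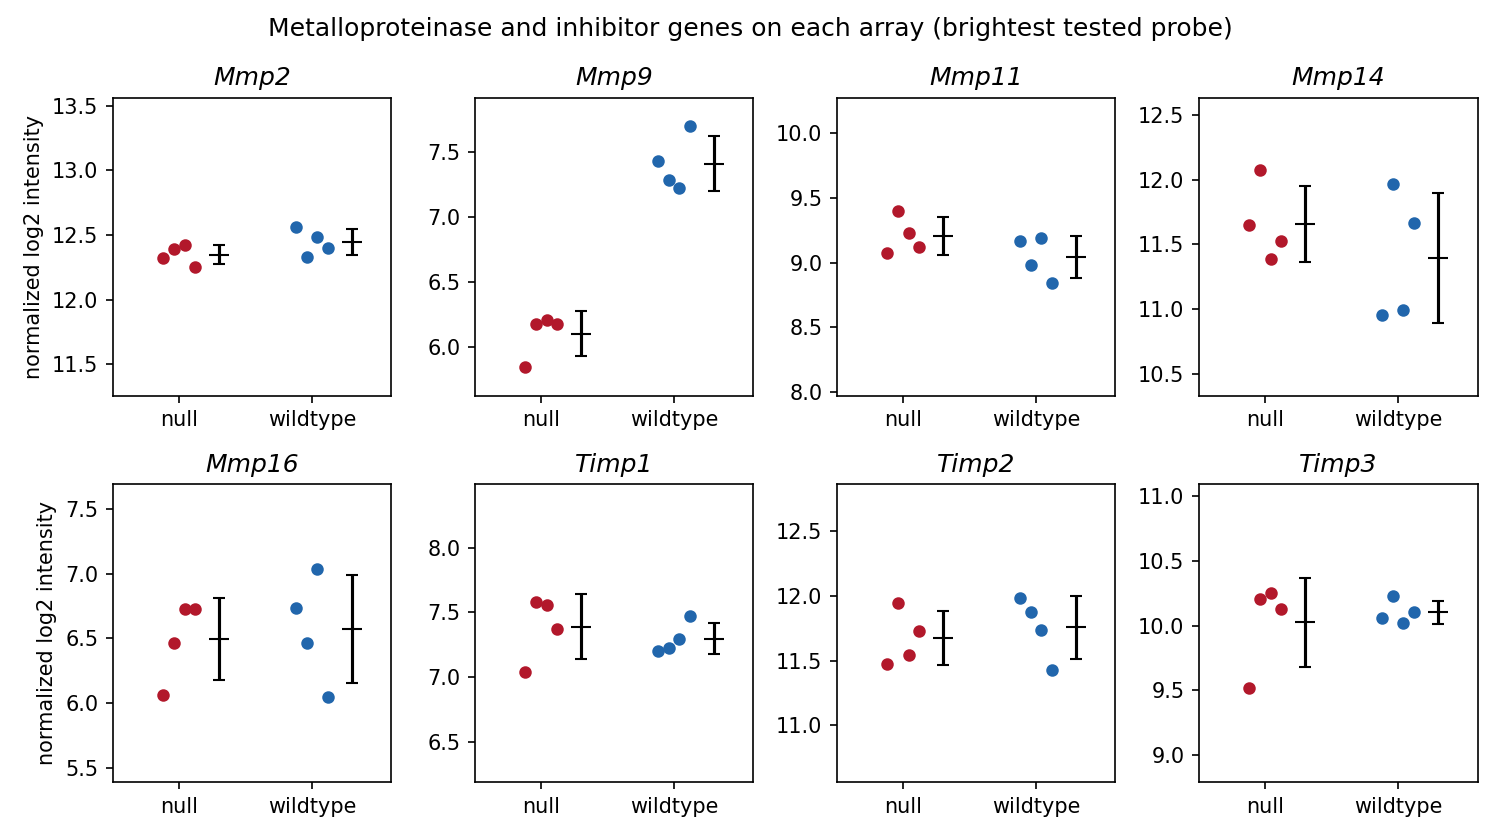
Normalized log2 intensity (y axis, a window of equal height in every panel) of the 8 tested genes by their brightest tested probe, with each null array (red, left) and each wildtype array (blue, right) as a point and the mean with SD (n = 4) in black. *Mmp9* is the panel in which the groups do not overlap, at 6.10 in null and 7.41 in wildtype cells.

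No other secreted metalloproteinase of the set passed the test. *Mmp2*, which encodes gelatinase A and shares denatured collagen as a substrate with MMP9, had log2 levels of 12.32, 12.39, 12.42 and 12.26 in null cells and 12.56, 12.33, 12.49 and 12.40 in wildtype cells. The groups overlapped closely. Its log2 fold was −0.10 ± 0.11 (SE, limma adjusted p = 0.781), and the 95% interval ran from 1.26-fold lower to 1.10-fold higher, which was the narrowest in the set. *Mmp11*, which encodes stromelysin 3, an enzyme activated inside the secretory pathway, had log2 levels of 9.07, 9.40, 9.23 and 9.12 in null cells and 9.17, 8.98, 9.19 and 8.84 in wildtype cells. Here the highest array was a null array and the lowest a wildtype array, with overlap between them, and the log2 fold was 0.16 ± 0.13 (limma adjusted p = 0.684, interval 1.09-fold lower to 1.37-fold higher). *Mmp13*, which encodes a collagenase that marks late hypertrophic cartilage and bone, was near background. Its 3 probes had deposited intensities between −6.7 and 17.6 over all arrays, and only 1 of them was detected on any array, on wildtype replicate 4, so none was tested and no fold is given.

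The membrane-anchored enzymes did not pass the test either. *Mmp14*, which encodes MT1-MMP, had log2 levels of 11.65, 12.07, 11.39 and 11.53 in null cells and 10.95, 11.97, 10.99 and 11.67 in wildtype cells. The wildtype arrays fell into a higher and a lower pair, with replicates 1 and 3 lowest. The SD was 0.29 in null and 0.50 in wildtype cells (n = 4 each), and the log2 fold of 0.26 ± 0.25 was the largest among the probes not called (limma adjusted p = 0.740, interval 1.23-fold lower to 1.78-fold higher). With 1 array left out it lay between 0.12 (without wildtype replicate 1) and 0.46 (without wildtype replicate 2), and it was not called in either case. The other *Mmp14* probe was not detected on any array, with intensities of −0.9 to 9.7.

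*Mmp16*, which encodes MT3-MMP, was tested by 2 probes whose folds differed in sign. The brighter probe had log2 levels of 6.06, 6.47, 6.73 and 6.73 in null cells and 6.74, 6.47, 7.03 and 6.05 in wildtype cells, a log2 fold of −0.07 ± 0.23 (limma adjusted p = 0.934). The dimmer probe had 5.68, 5.95, 6.11 and 6.46 in null cells and 6.25, 6.03, 6.21 and 4.96 in wildtype cells, a log2 fold of 0.18 ± 0.29 (limma adjusted p = 0.857). On each probe wildtype replicate 4 was the lowest array, and on the dimmer probe it was not detected there. Without that array the dimmer probe had a log2 fold of −0.12 ± 0.18 (limma adjusted p = 0.819), so its sign rested on 1 array. The remaining *Mmp16* probe had an intensity of 1 or less on every array. It could therefore not be matched to one row of intensities and was not used.

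The inhibitors lay close to equality. *Timp1* had log2 levels of 7.04, 7.58, 7.56 and 7.37 in null cells and 7.20, 7.22, 7.29 and 7.47 in wildtype cells by its brighter probe, a log2 fold of 0.09 ± 0.15 (limma adjusted p = 0.858, interval 1.18-fold lower to 1.34-fold higher). Its other probe gave 0.11 ± 0.17, although both *Timp1* probes turned negative when arrays were scaled by their medians alone (log2 −0.04 and −0.03). *Timp2*, whose protein inhibits gelatinases and also takes part in the activation of MMP2, had 11.48, 11.95, 11.55 and 11.73 in null cells and 11.99, 11.88, 11.74 and 11.43 in wildtype cells. The lowest of these was a wildtype array and the highest was another, and the log2 fold was −0.08 ± 0.16 (limma adjusted p = 0.888, interval 1.36-fold lower to 1.21-fold higher).

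*Timp3*, whose product binds to the matrix and also inhibits some ADAM proteases, differed among null arrays. Its brightest probe had log2 levels of 9.52, 10.21, 10.25 and 10.13 in null cells and 10.06, 10.23, 10.02 and 10.10 in wildtype cells. Null replicate 1 was the lowest of the 8 arrays, and the other null arrays lay above the wildtype median. The log2 fold was −0.08 ± 0.17 (limma adjusted p = 0.904, interval 1.38-fold lower to 1.24-fold higher), and 0.09 ± 0.12 without null replicate 1 (adjusted p = 0.836). A dimmer *Timp3* probe gave −0.10 ± 0.19, and the remaining one was detected only on null replicate 1 and was not tested.

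**Figure D2:**
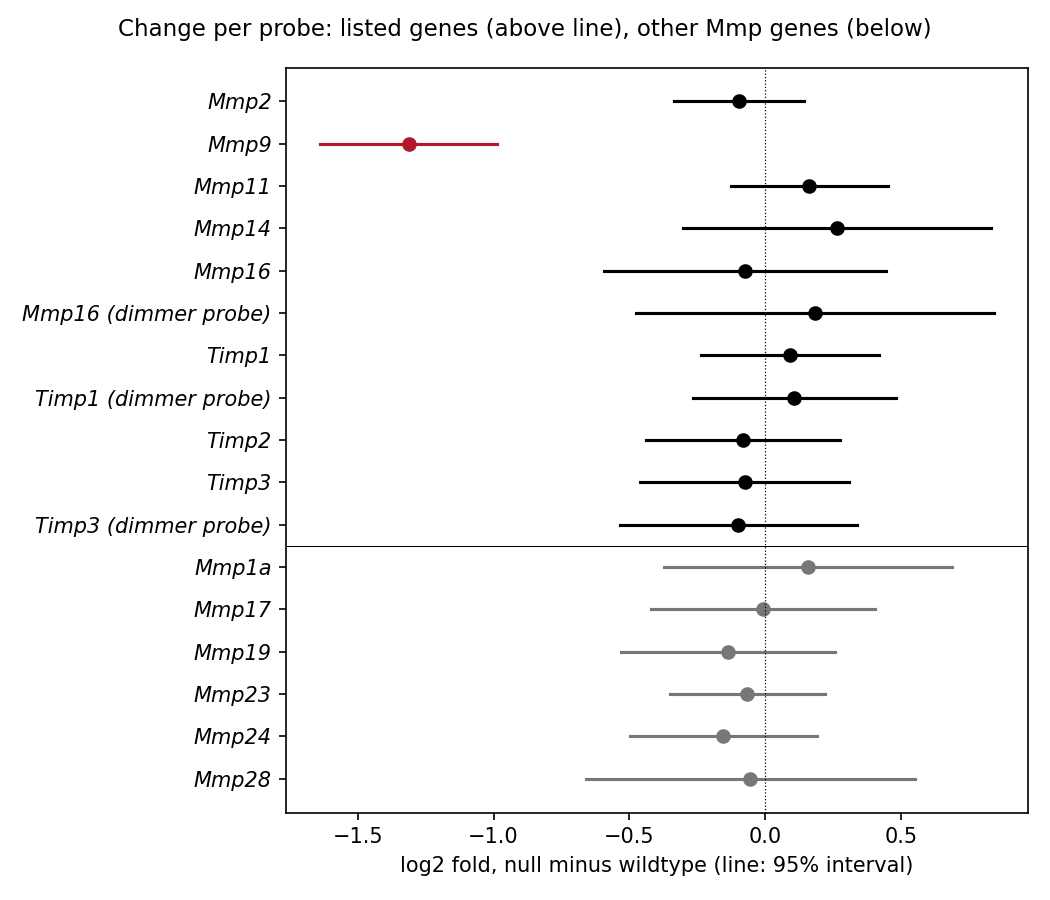
Log2 fold (x axis, null minus wildtype, line at 0) with its 95% interval for each tested probe, the 8 genes of the set above the horizontal line (*Mmp9* in red, the others in black) and 6 further *Mmp* genes below it (grey). The interval of *Mmp9* ends at −0.99, and all other intervals include 0.

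Across the 10 probes not called, the largest change was 1.20-fold and adjusted p ran between 0.684 and 0.934, but the intervals reached from −0.59 to 0.84 on the log2 scale, both ends set by *Mmp16* probes. The *Mmp2* interval of −0.34 to 0.14 was much narrower, and for none of these probes are the groups shown to be alike. The standard errors of the 11 probes were 0.11 to 0.29, against a median of 0.16 over all probes tested. Null replicate 1 was the lowest null array for 6 of the 8 genes (*Mmp9*, *Mmp11*, *Mmp16*, *Timp1*, *Timp2* and *Timp3*), and null replicate 2 the highest for 4. Wildtype replicate 4 was the lowest wildtype array for 3 genes (*Mmp11*, *Mmp16* and *Timp2*) and the highest for 2 (*Mmp9* and *Timp1*).

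The fall of *Mmp9* was read under each other processing of the same intensities. It was called in 8 of 8 fits that left out 1 array, with log2 folds between −1.38 and −1.22 and adjusted p between 0.00937 and 0.0222. In the plot of *Mmp9* by processing the log2 fold was negative throughout, between −1.63 and −0.99 over 15 further settings. The call was kept in 14 of these. The size of the fold moved with the offset, at −0.995 with an offset of 50 and −1.49 with an offset of 4. It was −1.63 in the deposited log2 table. It was lost with the scaling by median absolute deviation that the methods describe, where the log2 fold was −1.54 ± 0.38 (adjusted p = 0.290). Under that scaling 10 probes of all those tested were called, 8 higher and 2 lower, against 149 in the processing used here, 63 higher and 86 lower.

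**Figure D3:**
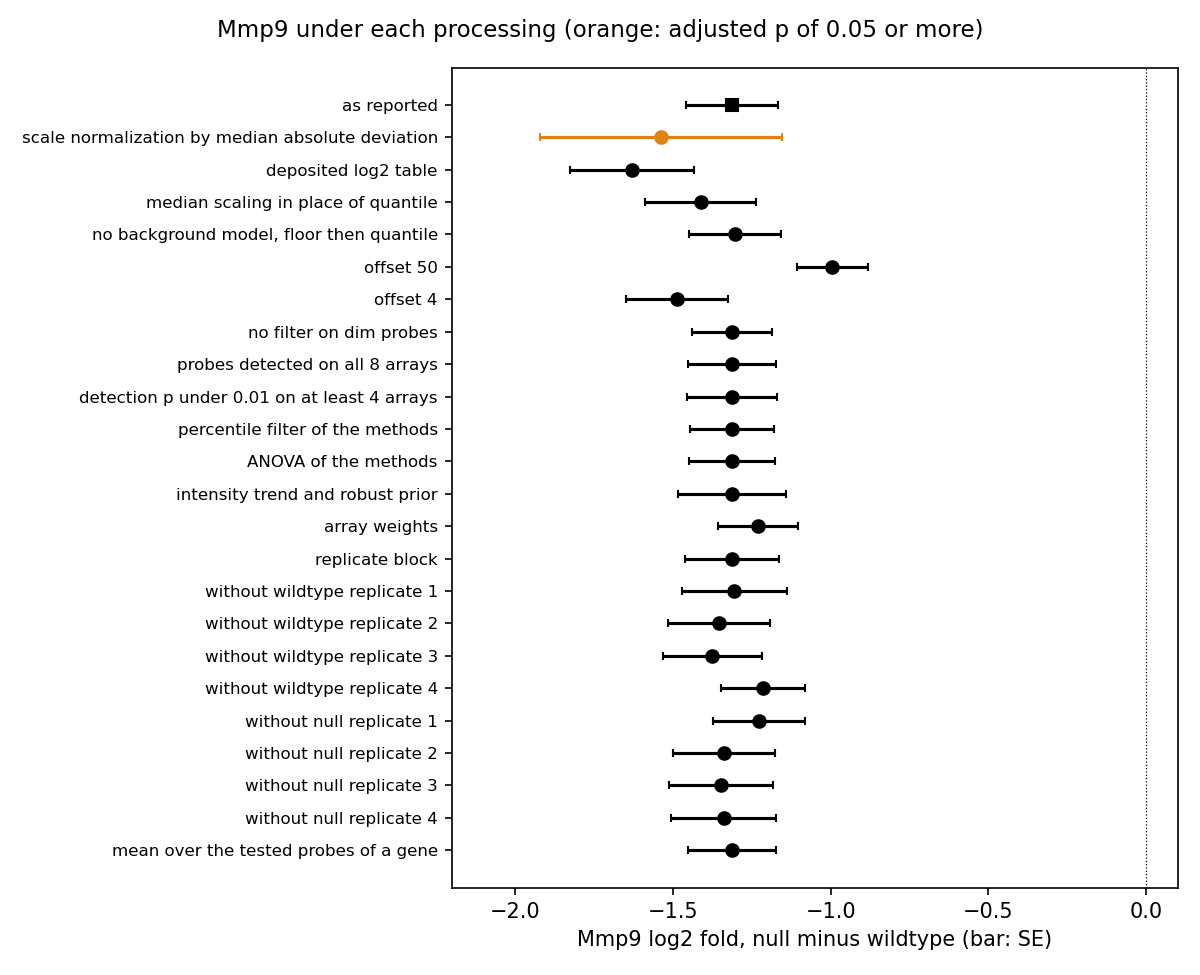
*Mmp9* log2 fold (x axis, null minus wildtype) with its SE under each processing setting and with each array left out (y axis), the square being the value as reported, −1.31. The orange point is the setting in which the call was lost, scaling by median absolute deviation, at −1.54 with an SE of 0.38.

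The genes most like *Mmp9* in level over the 8 arrays, by Pearson correlation of the brightest tested probes, were *Tbxas1* (thromboxane synthase, r = 0.984), *Mid2* (r = 0.984), *Aldoc* (brain-type aldolase, r = 0.983), *Ctla2b* (r = 0.977) and *Plek* (pleckstrin, a substrate of protein kinase C in platelets, r = 0.976). The points share the genotype difference, and within genotypes the same correlations were 0.721, 0.753, 0.760, 0.517 and 0.587. All 5 genes had negative log2 folds, between −2.50 for *Plek* and −0.49 for *Aldoc*, and *Aldoc* was not called (limma adjusted p = 0.0933).

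MMP9 is also made by blood and bone-resorbing cells, so the markers of cell types that the sort could hold were read beside it. Summed over 11 tested megakaryocyte and platelet genes, the normalized intensity was 474 to 1540 on null arrays and 6130 to 7240 on wildtype arrays. The sums did not overlap, 10 of the 11 genes were called lower, *Pf4* and *Ppbp* among them, and the median log2 fold was −2.50. *Gp6* was detected on 0 null and 4 wildtype arrays, so it passed the filter only through the wildtype group. *Gp9* was detected on 1 null array, and *Ppbp*, *Itga2b*, *Gp1bb*, *Treml1* and *Vwf* on 2 each. The folds of these genes and the sums thus take in undetected null values. Null replicate 1 was lowest for the platelet sum as it was for *Mmp9*, whereas null replicate 4 stood lower than replicates 2 and 3 for the sum (793, against 1430 and 1540) and level with them for *Mmp9*. Macrophage genes had log2 folds below 0 for 9 of 9 tested genes with a median of −0.41, but 0 were called and the sums overlapped, at 271 to 946 on null arrays and 514 to 864 on wildtype arrays.

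Most osteoclast and neutrophil genes had no probe detected on enough arrays to be tested. Of those with a probe, 5 of 9 osteoclast and 3 of 10 neutrophil genes were not detected on any array. Of 9 osteoclast genes 2 were tested and 0 called, the protease gene *Ctsk* (7.56 ± 0.78 in null and 7.07 ± 0.17 in wildtype cells, SD, n = 4 each, log2 fold 0.49 ± 0.33, limma adjusted p = 0.629) and *Oscar* (log2 fold 0.08 ± 0.19, adjusted p = 0.910). The sums were 122 to 310 on null and 164 to 197 on wildtype arrays, and the defining genes *Acp5*, *Calcr* and *Dcstamp* were not detected on any array. Of 10 neutrophil genes with a probe 1 was tested, *Prtn3*, detected on all 8 arrays (sums 145 to 200 on null and 147 to 190 on wildtype arrays, log2 fold 0.05 ± 0.15, adjusted p = 0.930). *Ngp*, *Camp* and *Lcn2* were not detected on any array. The other untested ones, *Mpo*, *Elane*, *S100a8*, *S100a9*, *Ltf* and *Cebpe*, were each detected on at least 1 array, so their absence is not shown. For the 8 tested endothelial genes the median log2 fold was −0.42, with 0 called and sums of 824 to 1450 on null and 926 to 2670 on wildtype arrays. The 7 tested erythroid genes went the other way, with a median log2 fold of 2.33 and 1 called higher, and sums of 5380 to 41300 on null and 2400 to 4380 on wildtype arrays. Among them *Alas2* was detected on 4 null and 0 wildtype arrays, so it passed the filter only through the null group. The part of any of these cells in the *Mmp9* change was not tested. In RNA from sorted cells taken in bulk, fewer cells of a type and less RNA per cell cannot be told apart.

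**Figure D4:**
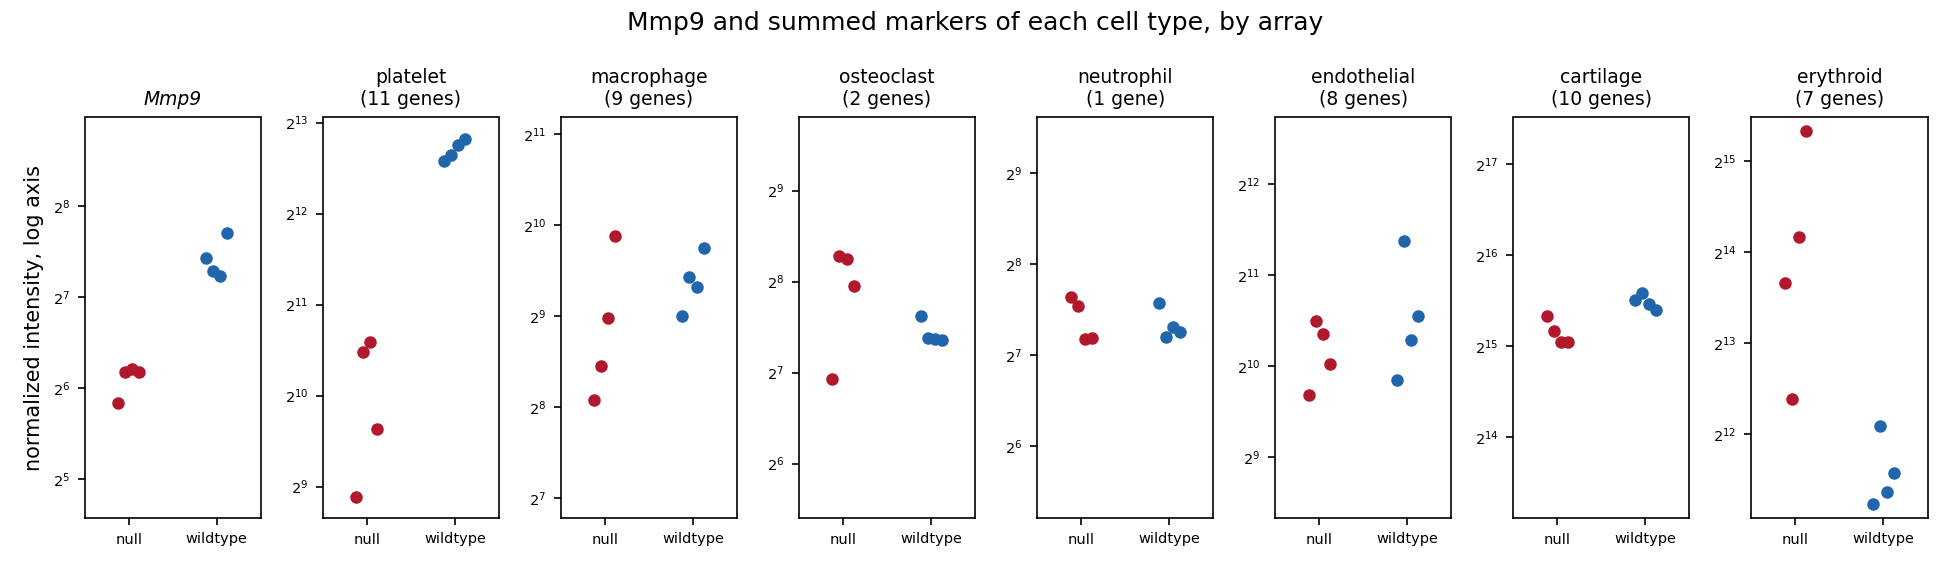
Normalized intensity of *Mmp9* and the summed normalized intensity of the tested markers of 7 cell types (y axes, logarithmic with base 2 and of equal span), by array, null in red on the left and wildtype in blue on the right. *Mmp9*, the platelet sum (474 to 1540 in null, 6130 to 7240 in wildtype) and the cartilage sum lie lower on every null array, and the erythroid sum lies higher.

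The labelled tissue was checked by limb mesenchyme and cartilage genes. *Sox9*, the cartilage regulator, was detected on all 8 arrays with log2 levels of 14.17 ± 0.14 in null and 14.27 ± 0.17 in wildtype cells (SD, n = 4 each). Of the limb mesenchyme genes 8 were tested, *Tbx4* and *Twist1* among them, with 0 called, 4 log2 folds below 0 and 4 above. *Pitx1*, the dimmest of these, had log2 levels of 6.65 ± 0.29 in null and 6.06 ± 0.50 in wildtype cells (log2 fold 0.59 ± 0.25, limma adjusted p = 0.417). *Meis2* had a log2 fold of −0.54 ± 0.24 (adjusted p = 0.447), and *Hoxd11* was not detected on any array. Without overlap between the groups, *Prrx1* had a log2 fold of 1.18 ± 0.26 (limma adjusted p = 0.0994) and *Msx1* 1.43 ± 0.47 (adjusted p = 0.290). Of the 10 tested cartilage genes 2 were called lower (*Comp* and *Chst11*), the median log2 fold was −0.64, and the sums were 33800 to 41300 on null and 43100 to 48900 on wildtype arrays without overlap. The part of this difference in the *Mmp9* change was not tested. The 6 muscle and 7 ectoderm genes tested gave 0 calls each.

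Around the set, 60 further genes of matrix proteolysis were listed by role, of which 53 had a probe and 35 were tested. None was called by limma, against 0.947% of all tested genes by their brightest probe. At an unadjusted p under 0.05 there were 3 of the 35, beside 2207 of all 19568 probes tested, and the plain per-probe test named in the methods also called 0 after adjustment. Their median log2 fold was −0.07.

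Among the other metalloproteinases 6 genes of 15 with a probe were tested and 0 called, with a median log2 fold of −0.06. The smallest p belonged to the membrane-type enzyme *Mmp24* (log2 fold −0.15 ± 0.15, limma adjusted p = 0.753), *Mmp19* (−0.14 ± 0.17, adjusted p = 0.815) and *Mmp1a* (0.16 ± 0.23, adjusted p = 0.850). The 9 others, *Mmp1b*, *Mmp3*, *Mmp7*, *Mmp8*, *Mmp10*, *Mmp12*, *Mmp20*, *Mmp21* and *Mmp25*, were not detected on any array. They include *Mmp3*, an activator of the MMP9 precursor, and the neutrophil collagenase gene *Mmp8*.

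Among activators and binding partners of metalloproteinases 6 of 11 genes were tested and 0 called, with a median log2 fold of 0.06. The proprotein convertase *Pcsk7* had −0.22 ± 0.13 (limma adjusted p = 0.572), its relative *Pcsk5* 0.33 ± 0.23 (adjusted p = 0.640) and *Cd44*, a cell-surface anchor for MMP9, 0.18 ± 0.18 (adjusted p = 0.754). Of the plasminogen system, *Plat*, the tissue plasminogen activator, was detected on all 8 arrays (7.91 ± 0.30 in null and 7.85 ± 0.16 in wildtype cells, SD, n = 4 each, log2 fold 0.06 ± 0.17, adjusted p = 0.930), and *Plau*, *Plaur* and *Plg* were not detected on any array.

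Inhibitors other than the TIMPs named above gave 6 tested genes and 0 calls, with a median log2 fold of −0.08. *Thbs2*, a thrombospondin known for clearing MMP2 by uptake into cells, had log2 levels of 5.73, 7.29, 7.11 and 7.53 in null cells and 6.27, 6.22, 6.04 and 6.15 in wildtype cells. Null replicate 1 lay below all wildtype arrays and the other 3 null arrays above them, so the log2 fold of 0.74 ± 0.34 was not called (limma adjusted p = 0.452). Without null replicate 1 it was 1.14 ± 0.14 and was called higher (adjusted p = 0.0121). *Reck*, a membrane-anchored inhibitor, had −0.34 ± 0.18 (adjusted p = 0.540) and *Thbs1* −0.58 ± 0.55 (adjusted p = 0.735). *Timp4* was not detected on any array.

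Of the ADAM proteases, a group of sheddases of which TIMP3 inhibits some but not all, 6 genes were tested and 0 called, with a median log2 fold of −0.03. The smallest p was that of *Adam12*, at 5.77 ± 0.32 in null and 5.37 ± 0.20 in wildtype cells (SD, n = 4 each), with a log2 fold of 0.40 ± 0.18 (limma adjusted p = 0.442). *Adam8* had −0.15 ± 0.12 (adjusted p = 0.689) and *Adam10* 0.19 ± 0.28 (adjusted p = 0.843).

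Of the matrix substrates, 11 genes were tested and 0 called, with a median log2 fold of −0.25. *Acan*, the aggregating proteoglycan of cartilage, had log2 levels of 5.07, 5.66, 5.18 and 5.21 in null cells and 6.65, 6.61, 5.70 and 6.14 in wildtype cells, which did not overlap. Its log2 fold was −0.99 ± 0.23 (limma adjusted p = 0.113). *Col2a1*, the main cartilage collagen, had 13.28, 13.07, 12.94 and 12.81 in null cells and 13.97, 13.59, 13.66 and 13.43 in wildtype cells, again without overlap, and a log2 fold of −0.63 ± 0.15 (adjusted p = 0.134). *Col4a2*, a basement membrane collagen, had −0.48 ± 0.16 (adjusted p = 0.298). *Acan* and *Col2a1* also stand in the cartilage list above. The summed intensity of the substrates was 20100 to 25300 on null arrays and 26000 to 31900 on wildtype arrays. That of the 8 genes of the set overlapped, at 12700 to 15800 on null and 13300 to 15000 on wildtype arrays. Such sums weigh the brightest genes most, here *Col2a1* among the substrates and *Mmp2* in the set. By single genes, 7 substrates had log2 folds below 0 and 4 above.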

How the data were processed

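The deposited intensity values were GenomeStudio exports, which the authors had background-subtracted but not normalized. The sources used here name no version. The deposited detection score rose with intensity, so detection p was 1 minus the score. The deposited log2 table was the log2 of the same intensities, with values below 1 raised to 1, less an array median and a constant per probe (45281 of 45281 rows, within 1e-05). It served as an alternative and to tie rows to probe names, which succeeded uniquely for 35454 rows and for all tested rows. The scale of these log2 values is thus known, but not where the constant per probe came from. The scaling by median absolute deviation in the methods is not seen in this table.

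Intensities were processed with neqc in limma 3.58.1 (R 4.3.3, offset 16, negative controls inferred from detection p). Probes with detection p under 0.05 on at least 4 of 8 arrays were tested, 19568 in all, by lmFit and eBayes (two-sided, null minus wildtype, without covariates), and p-values were adjusted over all of them (Benjamini-Hochberg). The number of arrays limits precision. A gene was read by its brightest tested probe, chosen by its mean over all arrays. Gene names came from the platform annotation, which gave 1 symbol to 34885 probes, several to 18 and none to 10378, and older symbols on the lists were updated through RefSeq.

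Named were every probe of the set, called genes of each role list or otherwise up to 3 of smallest p, and the 5 genes most like the member of smallest adjusted p. *Adam12*, *Thbs2*, *Acan* and *Col2a1* are among these. *Plat*, *Sox9*, *Pf4*, *Ppbp* and the other cell type markers were named after their values were seen. The set, the role lists and the marker lists were chosen with earlier results of these data known. The p-values rest on the spread among these 8 arrays. Other background corrections, offsets, scalings, filters, tests, array weights, a replicate block and the omission of each array were tried as alternatives.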

Additional observations from a re-analysis of the deposited data

Results flagged for a closer look

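In 2 of 22 checks of the lowest and highest array per tested probe and genotype, the gap of 1 array to the nearest other exceeded Dixon's 95% critical ratio for 4 samples, and chance flags about 1 such group in 20. For *Mmp9* in null cells the ratio was 0.93, with null replicate 1 at a log2 level of 5.84 and the other null arrays at 6.18 to 6.20. Without that array the *Mmp9* log2 fold was −1.23 (adjusted p = 0.0105). For the brightest *Timp3* probe in null cells the ratio was 0.839, with null replicate 1 at 9.52 and the others at 10.13 to 10.25. Both flags concern the same array.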

How the results depend on the processing

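A total of 23 alternative settings were run. The *Mmp9* call held in all but scaling by median absolute deviation (log2 fold −1.54, 0 probes of the set called), and with the replicate block it was −1.31 (adjusted p = 0.0303), where 108 probes were called. Same-numbered arrays correlated at 0.07, 0.46, 0.26 and −0.31 in their deviations, so the numbers were not taken to pair the samples. Of 226 other comparisons for the set, 213 kept their sign, 13 reversed and 0 became called (lowest adjusted p 0.399). Under median absolute deviation scaling the reversed log2 folds were 0.009 (*Mmp16*), 0.15 (*Mmp2*), 0.16 (*Timp2*) and 0.046 (*Timp3*), with median scaling −0.028 and −0.040 (*Timp1*), and with the mean over a gene's probes 0.055 (*Mmp16*). Leaving out 1 array gave 0.12 to 0.46 for *Mmp14*, −0.25 to 0.08 and −0.12 to 0.31 for the *Mmp16* probes, −0.215 to 0.013 and −0.151 to 0.094 for the *Timp3* probes, and 0 to 1 called genes on the role lists (*Thbs2* without null replicate 1). On those lists 1 gene was called with array weights (*Col2a1*, log2 fold −0.74, adjusted p = 0.0436) and 1 with the mean over a gene's probes (*Acan*, −0.89, adjusted p = 0.0253). The cause was not tested. Over all probes 149 were called, against 10 with median absolute deviation, 65 in the deposited log2 table, 97 if detected on all 8 arrays, 53 by the ANOVA, 267 with array weights and 59 to 150 with 1 array left out. Median scaling moved the median log2 fold of all probes to −0.14, beside −0.03. A chip block was not run, since the headers name no chip. *Mmp13* lay too near background for a fold.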
